A study of Mus musculus with 6 samples.

Results

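Imprinted genes are transcribed mainly from the allele inherited from a single parent, and the list examined here held 41 mouse genes that are imprinted in at least one tissue. They were chosen by gene symbol and not by a rule on the liver counts, but with earlier results of these data known. Of the 41, 36 had a row among the 37991 Ensembl gene IDs of each library, and Rian, Mirg, Kcnq1ot1, Snrpn and Peg13 matched none and were not analysed here. The livers came from mice of the FVB strain at 84 days of age, 3 of them Ing5 MommeD48/+ (Het) and 3 Ing5 +/+ (WT), and their poly(A) RNA was sequenced. Ing5 encodes a subunit of histone acetyltransferase complexes, and MommeD alleles were found by screening mutagenised mice for altered transgene silencing. Total counts were 20032822 to 21402396 in Het libraries and 19840541 to 22041117 in WT libraries. The labels number the livers of a genotype without naming separate mice, so the p-values rest on a spread that need not be one among mice. Libraries of a genotype differed by more than counting error. The chi-square per degree of freedom was 10.2 to 36.9 between Het libraries and 26.1 to 79.9 between WT libraries.

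Imprints are DNA methylation marks set in the egg or the sperm and kept in the embryo while the rest of the genome is reprogrammed. A marked control region usually governs a cluster, silencing some genes and allowing others on the same chromosome, often through an antisense or long noncoding RNA. Many imprinted genes act on fetal growth, and in rodent liver several of them, H19, Igf2 and Dlk1 among them, are abundant before birth and shut down afterwards. Counts per gene do not tell the parental alleles apart, so a loss of imprinting would appear only through the summed level of both alleles.

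Ing5 itself had 193, 217 and 180 counts in the Het libraries, against 182, 228 and 191 in the WT libraries. The groups overlapped, with a log2 fold change of -0.05 (SE 0.11, 95% interval -0.30 to 0.20; adjusted p = 0.9998, edgeR quasi-likelihood, Benjamini-Hochberg across the 12631 genes tested). The labels do not say whether the allele changes the RNA level, so this value does not check the genotype labels. The hepatocyte markers Alb, Ttr, Apoa1, Serpina1a, Serpina1b, Cps1, Hnf4a and Tdo2 summed to 82546 to 101225 CPM (counts scaled to the TMM-normalised library size) in Het and 78266 to 96023 CPM in WT livers. All 8 were detected, and 6 of 8 had a higher fitted value in Het. Genes of the acute phase, the hepatic response to inflammation, separated livers within both genotypes. None of the 17 genes listed had a higher fitted value in Het, and their sum was 19176 ± 4569 CPM in Het and 29175 ± 15453 CPM in WT livers (SD, n = 3 each). Their score, the mean log2 CPM of these genes centred on the 6 livers, was 0.61, -1.01 and -1.34 in Het livers 1 to 3 and 0.90, 1.95 and -1.10 in WT livers 1 to 3, so Het liver 1 and WT livers 1 and 2 lay above the rest.

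Promoter windows from RefSeq (build GRCm38.p6, 250 bases before to 50 after a transcript start) were found for 33 of the 41 listed genes and 29 of the 36 with a row. The 44 windows of these 29 genes held 1 to 48 CpG dinucleotides, the sites of DNA methylation, with a median of 16.5, against a median of 7.0 over the 32851 windows of all genes. The hexamer TGCCGC, read on both strands, is the core that the imprint-keeping protein ZFP57 binds when it is methylated. It was present in 11 of the 44 windows (25%) and in 11.6% of all windows, and windows of the same gene can overlap, as those of Mest that hold it do. The hexamer itself holds a CpG, and the higher CpG count of the members' windows was not allowed for. A few windows are shown, with each CpG in capitals, for the members on which the liver values below turn: Meg3 (chr12:109540746-109541045, + strand) and Inpp5f (chr7:128611115-128611414, + strand), which had the smallest p-values, Slc38a4 (chr15:97055907-97056206, - strand), the most abundant member, Igf2r (chr17:12769657-12769956, - strand), the tested member with the fitted log2 fold change nearest to 0, and Nap1l5 (chr6:58907077-58907376, - strand), almost without reads.
Meg3: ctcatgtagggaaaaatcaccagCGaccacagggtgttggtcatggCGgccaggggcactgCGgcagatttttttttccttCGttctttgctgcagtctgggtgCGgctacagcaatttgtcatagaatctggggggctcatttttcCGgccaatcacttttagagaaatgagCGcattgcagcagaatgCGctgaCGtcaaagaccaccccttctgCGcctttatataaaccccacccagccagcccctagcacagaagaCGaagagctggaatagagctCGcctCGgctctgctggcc
Inpp5f: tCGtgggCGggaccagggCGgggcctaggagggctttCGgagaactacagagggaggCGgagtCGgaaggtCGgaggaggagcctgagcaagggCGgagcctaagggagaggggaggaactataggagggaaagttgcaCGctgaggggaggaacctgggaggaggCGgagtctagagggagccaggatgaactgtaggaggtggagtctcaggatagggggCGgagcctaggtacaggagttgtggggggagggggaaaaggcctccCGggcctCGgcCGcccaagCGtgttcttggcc
Slc38a4: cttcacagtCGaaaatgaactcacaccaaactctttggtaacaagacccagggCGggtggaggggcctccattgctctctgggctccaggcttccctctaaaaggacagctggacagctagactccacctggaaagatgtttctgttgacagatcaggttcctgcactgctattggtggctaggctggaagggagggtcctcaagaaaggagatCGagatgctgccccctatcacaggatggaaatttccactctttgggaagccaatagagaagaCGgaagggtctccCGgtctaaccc
Igf2r: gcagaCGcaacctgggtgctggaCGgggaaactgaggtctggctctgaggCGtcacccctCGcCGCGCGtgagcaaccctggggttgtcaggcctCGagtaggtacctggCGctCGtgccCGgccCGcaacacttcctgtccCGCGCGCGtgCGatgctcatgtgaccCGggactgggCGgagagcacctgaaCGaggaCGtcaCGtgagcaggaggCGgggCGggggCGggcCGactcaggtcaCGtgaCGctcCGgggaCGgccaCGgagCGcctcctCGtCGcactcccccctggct
Nap1l5: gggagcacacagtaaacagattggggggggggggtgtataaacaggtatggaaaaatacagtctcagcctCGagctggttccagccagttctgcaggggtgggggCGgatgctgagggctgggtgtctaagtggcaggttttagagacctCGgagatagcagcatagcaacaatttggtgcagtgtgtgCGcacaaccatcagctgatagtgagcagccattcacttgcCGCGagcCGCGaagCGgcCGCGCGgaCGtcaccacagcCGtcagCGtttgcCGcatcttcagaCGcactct
The Igf2r window held 34 CpGs, Nap1l5 17, Inpp5f 15, Meg3 13 and Slc38a4 5, so the fewest among the windows shown belonged to the most abundant member. RefSeq has 2 windows for Meg3, and the other held 1 CpG and no match. It has 3 for Slc38a4, each with 5 CpGs and no match. For Inpp5f it has 1, so the starts of the full-length transcript and of the shorter imprinted one (below) are not both shown. Nap1l5 carried the hexamer at positions 227 and 278 of its window and Meg3 at position 61, counted from the 5′ end, and the other windows shown had no match. A match is a run of letters, and binding was not measured.

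Of the 36 members, 25 passed the filter on low counts and could be tested, and the other 11 had at most 13 counts in any library. None of the 25 passed the edgeR quasi-likelihood test (Benjamini-Hochberg adjusted p = 0.9998 for each), where 0 of 12631 genes tested, 0%, passed. DESeq2 called 0 of the 25 and 0.103% of all genes tested, and limma-voom called 0 of either. At an unadjusted p under 0.05 there were 2 members, Inpp5f and Meg3, both with higher values in Het livers, and 4.33% of all genes tested were at this level, 2.12% higher in Het and 2.21% lower in Het. The values of the 3 Het livers lay on 1 side of the 3 WT livers for Inpp5f, Ppp1r9a and Zrsr1, which is 3 of 25 against 8.99% of all genes tested. The fitted log2 fold change was positive for 18 of 25 members, against 50.3% of all genes tested. With the acute-phase score as a covariate it was positive for 15 of 25. The median log2 fold change of the 25 was 0.07, against 0.0009 over all genes tested. It was 0.15 without WT replicate 3 and 0.05 without Het replicate 2. These counts are a description of the list, and their direction was known from earlier results of the same libraries. The 95% interval lay within a 1.5-fold change either way for 16 members and within a 2-fold change for 21.

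**Figure D1:**
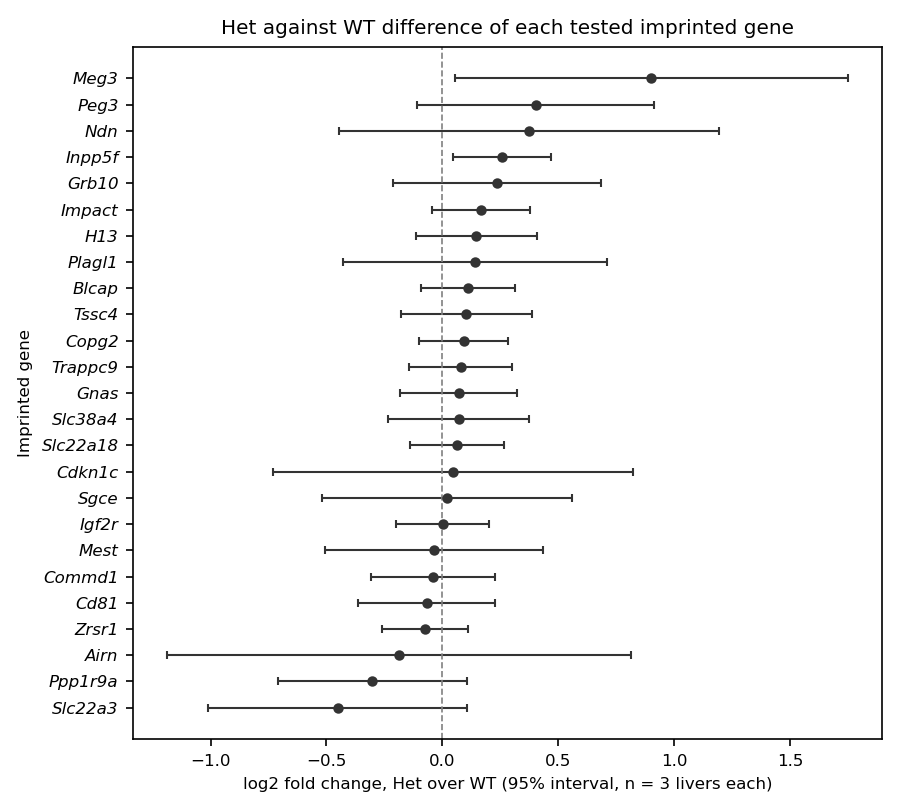
Log2 fold change (Het over WT, x axis) with its 95% interval from the edgeR quasi-likelihood fit for each of the 25 tested imprinted genes (y axis). Only the intervals of Meg3 and Inpp5f lie wholly above 0, and none of the genes passed after adjustment over all genes.

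Levels differed among members by orders of magnitude. Per kb of merged exon (GENCODE M21, whose exons can be longer than those counted by the authors), Slc38a4 had 283 CPM per kb in Het and 269 CPM per kb in WT livers. Cd81 followed with 68.5 and 71.7 CPM per kb in Het and WT livers, then Slc22a18 with 39.9 and 38.3 and Gnas with 38.98 and 37.1 CPM per kb. H13, Blcap, Copg2, Peg3, Igf2r and Tssc4 lay between 4.94 and 11.9 CPM per kb in both genotypes. Meg3 was among the lowest tested members, with 0.207 and 0.112 CPM per kb in Het and WT livers. Slc38a4 alone took 47.7% to 53.9% of the members' counts in Het and 48.4% to 53.0% in WT libraries.

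**Figure D2:**
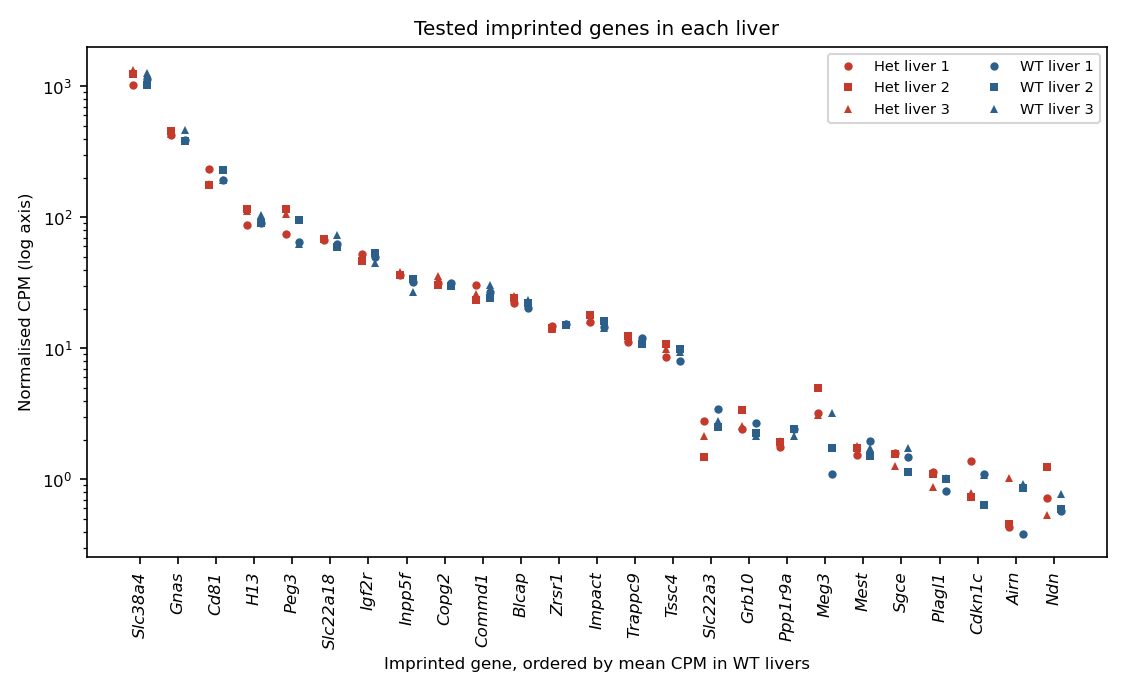
Normalised CPM (log axis) of the 25 tested imprinted genes, ordered by their mean in WT livers, with Het livers in red on the left and WT livers in blue on the right of each gene. Slc38a4 lies at 1026 CPM or more in every liver, while Meg3 ranges from 1.11 to 4.97 CPM.

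In the Dlk1-Meg3 cluster the maternally expressed noncoding RNA Meg3 had the largest fold change of the tested members. Its counts were 67, 108 and 63 in the Het libraries, against 23, 38 and 63 in the WT libraries, or 3.20, 4.97 and 3.07 CPM against 1.11, 1.73 and 3.24 CPM. WT liver 3 lay within the Het range, and WT livers 1 and 2 lay below it. The difference was 0.90 on the log2 scale (SE 0.37, 95% interval 0.05 to 1.75), and the edgeR p was 0.0399 before and 0.9998 after Benjamini-Hochberg adjustment. It was 1.40 without WT replicate 3 (adjusted p = 0.163, edgeR, Benjamini-Hochberg) and 0.60 without WT replicate 1. With the acute-phase score as a covariate it was 0.62. Dlk1, the paternally expressed Notch-like ligand of the cluster, had 1, 1 and 0 counts in Het and 0 in each WT library. Of 29 rows that overlap Rian and Mirg, which host snoRNAs and miRNAs, all 29 were at 0 counts in the 6 libraries, which were made from poly(A) RNA. The gene type of these rows was not checked.

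Meg3 is transcribed in stromal and vascular cells of many tissues, so markers of these cells are given beside it. The 10 stellate cell and fibroblast markers (Reln, Lrat, Des, Dcn, Col1a1, Col1a2, Col3a1, Pdgfrb, Hgf and Rgs5) summed to 257, 313 and 245 CPM in Het livers, against 256, 198 and 277 CPM in WT livers, and 6 of 10 were higher in Het livers. Het liver 2, WT liver 3 and Het liver 1 had, in this order, the highest sums and the highest Meg3 levels. WT liver 1, at 256 CPM against 257 CPM in Het liver 1, had the lowest Meg3 level. The lowest sum was in WT liver 2. Dcn, which is also on the list of other imprinted genes below, was a large part of these sums. It had 111, 137 and 97.4 CPM in Het livers, against 100, 70.3 and 119 CPM in WT livers. Its highest levels were in the same livers, in the same order. The 8 sinusoidal endothelial markers summed to 157, 185 and 150.4 CPM in Het livers, against 166, 153 and 195 CPM in WT livers, with 2 of 8 higher in Het livers. The 8 Kupffer cell markers summed to 138 to 242 CPM in Het and 123 to 224 CPM in WT livers, with 5 of 8 higher in Het livers. None of these markers was at 0 counts in all libraries, and the part of cell composition in the Meg3 difference was not tested. Of the other lists, cholangiocyte markers summed to 28.3 ± 1.22 CPM in Het and 31.9 ± 2.03 CPM in WT livers (SD, n = 3 each). Although this sum was lower in Het, 3 of the 5 tested markers had a higher fitted value in Het. Erythroid markers summed to 163 ± 56.9 CPM in Het and 226 ± 55.1 CPM in WT livers, with 0 of 5 higher in Het livers. Pancreatic acinar markers, with Cpa1, Prss2, Pnlip and Amy2a5 at 0 in all libraries, summed to 52.2 ± 7.69 and 47.5 ± 9.40 CPM in Het and WT livers (SD, n = 3 each). T and B cell, adrenal, neuronal, adipocyte and skeletal muscle markers each summed to at most 3.04 CPM in any liver, with Cyp11b1, Snap25, Chga, Th and Ckm at 0 in all libraries. In whole liver, fewer cells of a type and less RNA per cell cannot be told apart.

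In the Peg3-Zim1 cluster the paternally expressed zinc finger gene Peg3 had 74.3, 116 and 106 CPM in Het livers, against 65.5, 95.3 and 63.1 CPM in WT livers. The groups overlapped, since Het liver 1 lay below WT liver 2. The difference was 0.40 on the log2 scale (SE 0.22, 95% interval -0.11 to 0.91), from 0.27 without Het replicate 2 to 0.62 without WT replicate 2. Zim1, its maternally expressed neighbour, had 2 counts in each Het library and 0, 5 and 1 in the WT libraries.

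Inpp5f, which encodes a phosphoinositide phosphatase, was separated between the genotypes. It had 36.2, 36.5 and 38.4 CPM in Het livers, against 32.2, 33.6 and 27.0 CPM in WT livers. Every Het value lay above every WT value, and the mean was 37.0 ± 1.19 CPM in Het and 31.0 ± 3.499 CPM in WT livers (SD, n = 3 each). The difference was 0.26 on the log2 scale (SE 0.09, 95% interval 0.04 to 0.47), and the edgeR p was 0.0227 before and 0.9998 after Benjamini-Hochberg adjustment. The value was 0.17 without WT replicate 3, the lowest liver. In mouse, imprinting is known for a shorter transcript of this gene with an internal start, and counts per gene do not separate it from the full-length transcript.

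At the Igf2-H19 cluster, where a paternally expressed fetal growth factor and a maternally expressed noncoding RNA share enhancers, both genes were near the limit of detection. H19 had 4, 13 and 1 counts in Het libraries, against 4, 6 and 2 in WT libraries. Igf2 had 4, 10 and 5 counts in Het libraries, against 4, 6 and 5 in WT libraries. Het liver 2 had the most of both, and the groups overlapped for each. A count of 0, for which 3 counts are allowed, corresponds to 0.138 to 0.146 CPM in Het and 0.136 to 0.154 CPM in WT libraries by counting error alone. These genes, at 0.0488 to 0.598 CPM, were therefore not far from that floor and were not tested.

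Of 10 genes listed as fetal liver genes shut down after birth, 3 are the members H19, Igf2 and Dlk1, and the others follow. Only livers at 84 days of age were sequenced, so the shutdown of each listed gene was not measured. Afp, the gene of alpha-fetoprotein, had 10, 9 and 10 counts in Het and 5, 4 and 9 counts in WT libraries, and Lin28b had 0 in all 6. Igf2bp2, which encodes an Igf2 mRNA-binding protein, had 0.526, 0.966 and 0.342 CPM in Het livers, against 0.963, 1.59 and 0.977 CPM in WT livers (log2 fold change -0.94, SE 0.39; edgeR, Benjamini-Hochberg adjusted p = 0.9998). Het liver 2 lay just above the lowest WT liver. Lpl, the lipoprotein lipase gene, had 112, 169 and 113 counts in Het libraries, against 83, 147 and 82 in WT libraries (log2 fold change 0.32, SE 0.23). Gpc3, the gene of a cell-surface proteoglycan, had 9, 9 and 19 counts in Het libraries, against 13, 19 and 21 in WT libraries (-0.53, SE 0.39). Both overlapped between the genotypes. Igf2bp1 had at most 1 count and Igf2bp3 at most 3 in any library. Of the 10, 3 were tested, 1 with a positive and 2 with a negative fitted value, and 0 passed in edgeR (1, Igf2bp2, with an unadjusted p under 0.05). Zbtb20, a repressor of Afp in mouse liver, had 122, 99.7 and 105 CPM in Het livers, against 155, 156 and 110.0 CPM in WT livers, and Het liver 1 lay above WT liver 3. Its log2 fold change was -0.37 (SE 0.14, 95% interval -0.69 to -0.05, unadjusted p = 0.0295, Benjamini-Hochberg adjusted p = 0.9998, edgeR). Zhx2, a postnatal repressor of H19 and Afp in mouse liver, was listed at 1 count in Het liver 3 and at 0 in the other libraries. As the annotation used for counting is not known, this need not reflect its RNA level.

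**Figure D3:**
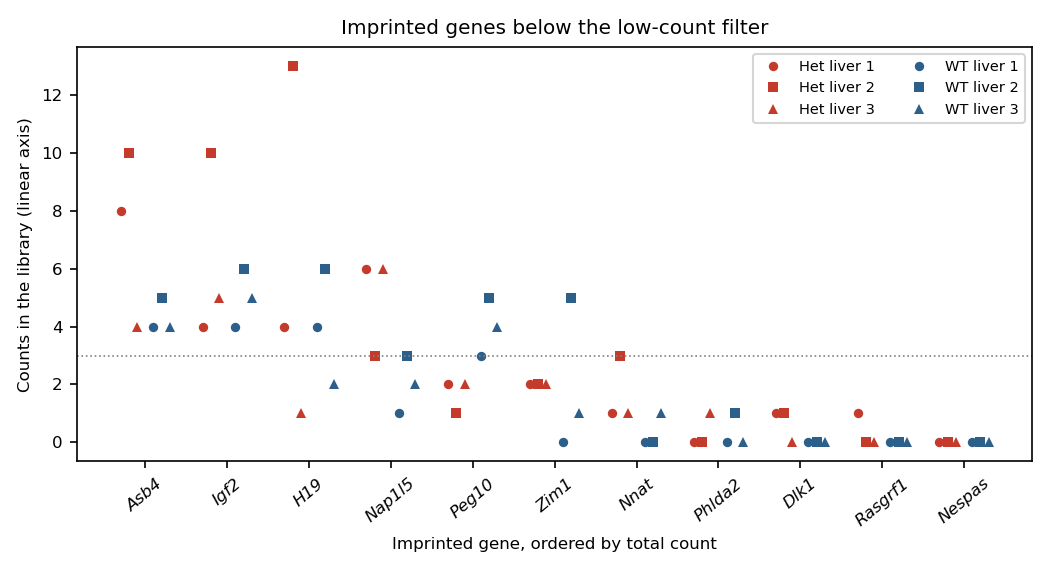
Raw counts (linear axis) in each library of the 11 imprinted genes below the low-count filter, Het in red and WT in blue, with a dotted line at the 3 counts that a count of 0 allows. H19 and Igf2 peak in Het liver 2 at 13 and 10 counts, and Nespas is at 0 throughout.

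In the Kcnq1 cluster the growth-limiting genes were low and the broadly expressed ones were not. Cdkn1c, a cyclin-dependent kinase inhibitor, had 29, 16 and 16 counts in Het libraries, against 23, 14 and 21 in WT libraries. Its log2 fold change of 0.05 had a wide 95% interval, from -0.73 to 0.82. Phlda2, which limits placental growth, had 0, 0 and 1 counts in Het and 0, 1 and 0 in WT libraries. The transporter gene Slc22a18 had 67.6, 68.1 and 67.9 CPM in Het livers, against 63.1, 59.2 and 72.8 CPM in WT livers, and the Het values lay within the WT range (log2 fold change 0.06, 95% interval -0.14 to 0.26). Cd81, a tetraspanin of many cell types, had 236, 176 and 180.1 CPM in Het livers, against 194, 231 and 193 CPM in WT livers (-0.07, 95% interval -0.36 to 0.23). Tssc4, a splicing factor gene, averaged 9.79 ± 1.07 CPM in Het and 9.12 ± 0.961 CPM in WT livers (SD, n = 3 each). Kcnq1, on the strand opposite to the silencing RNA Kcnq1ot1, which matched no row, had 11 to 27 counts in Het and 12 to 20 in WT libraries.

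In the Igf2r cluster, Igf2r had the fitted log2 fold change nearest to 0 among the 25 tested members. Igf2r, the receptor that takes up IGF2 and mannose 6-phosphate proteins, had 52.8, 46.4 and 49.3 CPM in Het livers, against 49.8, 53.4 and 45.05 CPM in WT livers. The difference was 0.002 on the log2 scale (SE 0.09, 95% interval -0.20 to 0.20), so the interval held to about a 1.15-fold difference either way. Airn, the antisense RNA that silences Igf2r on the paternal chromosome, had 9, 10 and 21 counts in Het libraries, against 8, 19 and 18 in WT libraries (-0.19, 95% interval -1.19 to 0.81). At these counts the interval of Airn allows a difference of 2-fold or more in the downward direction. Slc22a3, an organic cation transporter gene imprinted in placenta, had 2.77, 1.47 and 2.15 CPM in Het livers, against 3.47, 2.50 and 2.78 CPM in WT livers. Het liver 1 lay among the WT livers, and the difference was -0.45 on the log2 scale (SE 0.25, 95% interval -1.01 to 0.11). Leaving out Het replicate 1 gave -0.69, and leaving out Het replicate 2 gave -0.24. The exons of Slc22a3 overlap on the opposite strand those of Plg, the plasminogen gene, which had 2656 ± 160.03 CPM in Het and 2747 ± 396 CPM in WT livers, so without known strandedness the low counts of Slc22a3 are uncertain.

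Slc38a4, an amino acid transporter gene of hepatocytes, had 1029, 1255 and 1330.4 CPM in Het livers, against 1149, 1026 and 1269 CPM in WT livers (log2 fold change 0.07, SE 0.14, 95% interval -0.23 to 0.37). It is listed as paternally expressed in some tissue, and whether it is imprinted in these livers was not measured. The lowest levels were in WT liver 2 and Het liver 1. Gnas, which encodes the stimulatory G protein alpha subunit, had 422, 456 and 429.9 CPM in Het livers, against 392.3, 384 and 469 CPM in WT livers. H13, the gene of signal peptide peptidase, had 87.6, 116 and 112 CPM in Het livers, against 91.1, 90.7 and 104 CPM in WT livers. For these 3 genes the lowest values were in Het liver 1 and WT livers 1 and 2, the livers with the highest acute-phase scores. With that score as a covariate the log2 fold changes were -0.08 for Slc38a4, -0.01 for Gnas and 0.01 for H13, against 0.07, 0.07 and 0.15 without it. Other members rose with the covariate, to 0.34 for Inpp5f, 0.46 for Peg3 and 0.19 for Impact, against 0.26, 0.40 and 0.17 without it. The part of the acute-phase state in these differences was not tested. Nespas, antisense to part of Gnas, had 0 counts in all 6 libraries, and its exons overlap those of Gnas.

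Among the other paternally expressed genes, Impact, an inhibitor of the amino acid sensor kinase GCN2, had 16.0, 18.1 and 16.5 CPM in Het livers, against 14.5, 16.3 and 14.3 CPM in WT livers. Only WT liver 2 reached the Het range, and the difference was 0.17 on the log2 scale (SE 0.09, 95% interval -0.05 to 0.38). Plagl1, a zinc finger transcription factor gene, averaged 1.04 ± 0.145 CPM in Het and 0.949 ± 0.113 CPM in WT livers (SD, n = 3 each). Mest, a hydrolase-fold gene of fetal mesoderm, averaged 1.70 ± 0.145 CPM in Het and 1.74 ± 0.238 CPM in WT livers, and its exons overlap those of Copg2 on the opposite strand. Ndn, the necdin gene, had 15, 27 and 11 counts in Het and 12, 13 and 15 in WT libraries, and its log2 fold change of 0.37 was -0.04 without Het replicate 2. Sgce, the epsilon-sarcoglycan gene, averaged 1.47 ± 0.175 CPM in Het and 1.46 ± 0.308 CPM in WT livers, while its retrotransposon-derived neighbour Peg10 had 2, 1 and 2 counts in Het and 3, 5 and 4 in WT libraries, lower in each Het library but at counts near the floor. Nap1l5, a nucleosome assembly protein gene, had 6, 3 and 6 counts in Het libraries, against 1, 3 and 2 in WT libraries. Nnat had at most 3 counts and Rasgrf1 at most 1 in a library, and both are chiefly neural genes. Snrpn had no row, and Gm38393, whose exons overlap it in GENCODE M21, had 7.09 ± 1.26 CPM in Het and 8.21 ± 1.07 CPM in WT livers.

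Zrsr1 and Commd1 form a pair in which the paternally expressed retrogene Zrsr1, related to a splicing factor, lies within an intron of Commd1, a copper homeostasis gene. Zrsr1 had 14.8, 14.4 and 14.1 CPM in Het livers, against 15.3, 15.0 and 15.3 CPM in WT livers. The groups were separated, but the distance was small, with a log2 fold change of -0.07 (SE 0.08, 95% interval -0.26 to 0.11). Commd1 had 30.3, 23.3 and 25.9 CPM in Het livers, against 27.0, 24.3 and 30.6 CPM in WT livers. These groups overlapped, and the log2 fold change was -0.04 (95% interval -0.31 to 0.23). Exons of the pair overlap on opposite strands in GENCODE M21, so reads there may not be told apart.

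Among the remaining maternally expressed or tissue-dependent genes, Ppp1r9a, the neurabin gene, had 1.77, 1.93 and 1.95 CPM in Het livers, against 2.41, 2.41 and 2.16 CPM in WT livers. All Het values lay below all WT values, and the difference was -0.30 on the log2 scale (SE 0.18, 95% interval -0.71 to 0.10, edgeR unadjusted p = 0.128). Grb10, an adaptor that dampens insulin and IGF receptor signalling, had 2.44, 3.41 and 2.54 CPM in Het livers, against 2.70, 2.27 and 2.16 CPM in WT livers (0.23, SE 0.20). The value was 0.07 without Het replicate 2, the highest liver. Copg2, a coatomer subunit gene, Blcap, a regulator of apoptosis, and Trappc9, a vesicle tethering subunit gene, had log2 fold changes of 0.09, 0.11 and 0.08 with SE of 0.09, 0.09 and 0.10. Asb4, a SOCS box gene, had 8, 10 and 4 counts in Het libraries, against 4, 5 and 4 in WT libraries. The parental allele listed for a gene is that known in some tissue, and the allele expressed in these livers was not measured. By this listing, 9 of 13 tested maternal genes and 7 of 10 tested paternal genes had positive fitted log2 fold changes. The medians were 0.06 and 0.10 on the log2 scale.

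Relative to the mean of the 6 livers, the members as a group were displaced most in Het liver 2 and WT liver 2. The median of log2(CPM + 0.1) minus that mean was 0.003, 0.10 and 0.03 in Het livers 1 to 3, against -0.04, -0.09 and 0.05 in WT livers 1 to 3. Over all genes tested the corresponding medians lay between 0.002 and 0.006 in every liver. Het liver 2 had the highest value for 8 of the 25 members (32%, against 17.7% of all genes tested), and WT liver 2 the lowest value for 8 (32%, against 17.6%). Without WT replicate 2 the count of members with a positive fitted value was 15 of 25, and without Het replicate 2 it was 19 of 25.

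**Figure D4:**
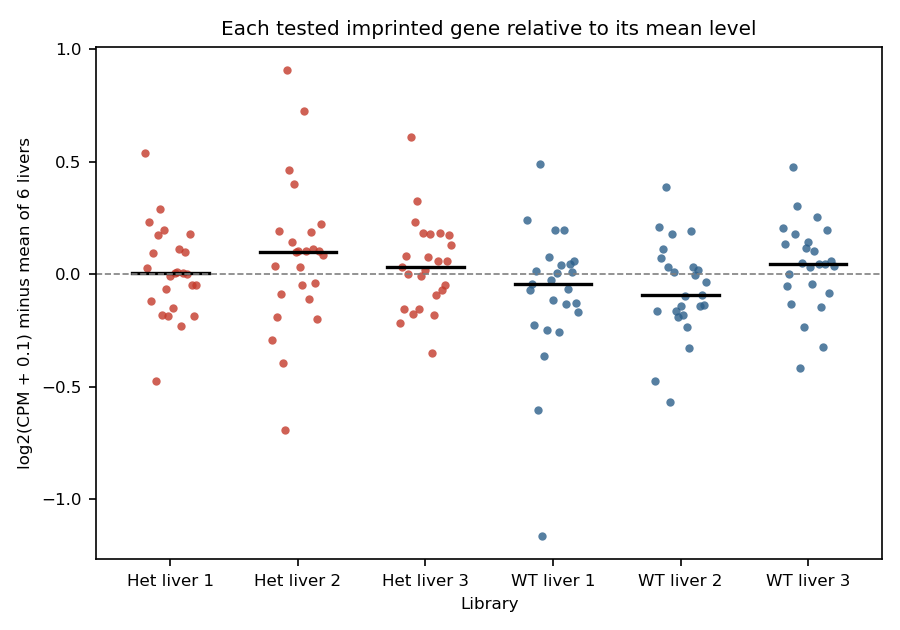
Each point is a tested imprinted gene, plotted as log2(CPM + 0.1) in that liver minus its mean over the 6 livers (y axis), with the median of the 25 genes as a black bar. The bar is highest in Het liver 2, at 0.10, and lowest in WT liver 2, at -0.09.

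The genes of proteins that set or keep imprints, or repress fetal genes, were examined next. Of 30 listed regulators 25 were tested, 0 passed in edgeR (smallest Benjamini-Hochberg adjusted p = 0.9998), and 1, Zbtb20, had an unadjusted p under 0.05, against 4.33% of all genes tested. DESeq2 and limma-voom also called 0. The fitted log2 fold change was positive for 7 and negative for 18, against 50.3% positive over all genes tested, and the median over the 25 was -0.03. The most abundant after Zbtb20 was Zfp445, a zinc finger protein gene that protects imprints, with 58.5, 51.2 and 86.4 CPM in Het livers, against 95.3, 78.0 and 50.8 CPM in WT livers. These groups overlapped widely (-0.19, 95% interval -0.93 to 0.54). Zfp57, whose protein binds the hexamer above, had 4 to 9 counts in Het and 8 to 17 counts in WT libraries and was not tested.

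Of 53 other genes reported as imprinted in some mouse tissue, several of them disputed, 47 had a row and 27 were tested. By edgeR with Benjamini-Hochberg adjustment 0 passed (smallest adjusted p = 0.9998), as with DESeq2 and limma-voom, and 2 had an unadjusted p under 0.05, against 4.33% of all genes tested. The fitted log2 fold change was positive for 13 of the 27, against 50.3% of all genes tested, with a median of -0.01. The most abundant were Pon1, a serum esterase gene, with 867 ± 77.5 CPM in Het and 764 ± 125 CPM in WT livers, and Smoc1, a secreted calcium-binding protein gene, with 119 ± 12.9 CPM in Het and 121 ± 5.11 CPM in WT livers (SD, n = 3 each). The 2 with an unadjusted p under 0.05, named after their values were seen, were Xlr3b and Tfpi2. Xlr3b, an X-linked gene with near-identical copies whose reads may have been split, had 34, 27 and 22 counts in Het libraries, against 9, 10 and 15 in WT libraries (log2 fold change 1.25, SE 0.32). Tfpi2, a protease inhibitor gene, had 34.9, 32.9 and 36.3 CPM in Het livers, against 42.9, 39.5 and 43.4 CPM in WT livers (-0.27, SE 0.08). Both were separated between the genotypes, with an adjusted p of 0.9998 each (edgeR, Benjamini-Hochberg). In all, 5 of the 27 did not overlap, against 8.99% of all genes tested: Xlr3b, Nap1l4 and Gab1 with higher values in Het livers, and Tfpi2 and Cobl with lower ones. The log2 fold changes were 0.08 for Nap1l4, 0.18 for Gab1 and -0.43 for Cobl, with SE of 0.07, 0.09 and 0.20.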

How the data were processed

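Raw read counts for each Ensembl gene ID were deposited by the authors, made from poly(A) RNA of whole liver in Illumina TruSeq libraries, per the labels' protocols. TopHat2 2.0.11, HTSeq 0.6.1, DESeq and the build mm9 are named in the submitters' processing notes without their role. For the counting strand and the annotation version, the sources used here gave nothing. Symbols were matched by Ensembl ID for 32919 of 37991 IDs. The annotation at hand was of build GRCm38, so it gave names, exon lengths and overlaps, and coordinates are printed only for RefSeq promoter windows of that build.

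Genotype and replicate number came from the labels. Tests on the counts used edgeR 4.0.16 in R 4.3.3: filterByExpr by genotype (12631 genes kept), TMM (factors 0.977 to 1.02) and the robust quasi-likelihood test on genotype, with Benjamini-Hochberg adjustment over all genes at 0.05. SE and intervals were derived from each F statistic. CPM are counts scaled by TMM library size. DESeq2 1.42.0 and limma-voom (limma 3.58.1) were alternatives, with others of normalisation, filter, composition, replicate block, acute-phase covariate and each library left out. The steps were also run on simulated counts with the same dispersion for every gene, and the outcome is not given here. Every listed member is named, with Ing5, the 2 most abundant genes of the regulator and other imprinted lists, and the summed cell markers. The fetal liver genes, Zhx2, Zfp57, Xlr3b, Tfpi2, Nap1l4, Gab1, Cobl, Gm38393, Kcnq1, Plg and Dcn on its own were added after their values were seen. Members and lists were chosen with earlier results of these data known.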

Additional observations from a re-analysis of the deposited data

How the results depend on the processing

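In 14 other fits (2 on scaling, by DESeq2 size factors or leaving the 20 most abundant genes out of library sizes, 2 on the low-count filter, which was dropped or set at a CPM above 1, a replicate block, DESeq2, limma-voom, an acute-phase covariate and 6 with a library left out) and at an adjusted p of 0.1, 0 imprinted members, regulators or other imprinted genes were called. Over all genes, 0 were called with all 6 livers, against 13 with DESeq2, 1 with no filter on low counts, and 0 to 17 with a library left out (10 without Het replicate 1 and 17 without WT replicate 3). Of 348 member values in these fits 322 kept their direction and 26, of 11 members, did not. With the acute-phase covariate the log2 fold change was -0.0133 for Slc22a18, 0.0651 for Cd81, -0.0782 for Slc38a4, -0.0144 for Gnas and -0.0835 for Sgce. With the filter at a CPM above 1 it was -0.000517 for Igf2r. With each library left out it ran from -0.69 to 0.0274 for Airn, -0.21 to 0.0242 for Cd81, -0.30 to 0.21 for Cdkn1c, -0.15 to 0.0487 for Commd1, -0.0607 to 0.0618 for Igf2r, -0.14 to 0.0605 for Mest, -0.0362 to 0.61 for Ndn, -0.14 to 0.17 for Sgce, -0.00192 to 0.15 for Slc22a18, -0.00732 to 0.17 for Slc38a4 and -0.12 to 0.00771 for Ing5. The cause was not tested. Whether the replicate numbers pair the samples was not settled. Same-numbered Het and WT livers correlated at -0.02, -0.09 and 0.23 in their deviations. Het liver 1 correlated best with WT liver 2, Het liver 2 with WT liver 1 and Het liver 3 with WT liver 3. With the block 0 genes were called, as without it, so this count does not decide the question. The unadjusted edgeR p with the block was 0.0081 for Peg3 and 0.0446 for Slc22a3, against 0.104 and 0.101 without it. For Inpp5f it was 0.0331, against 0.0227 without the block. The smallest adjusted p of a member with the block was 0.687 (edgeR, Benjamini-Hochberg). The 95% intervals of Meg3, Airn, Slc22a3 and Ndn reached past a 2-fold change.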
